A study of Mus musculus with 6 samples.

Results

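Cadherins are single-pass membrane proteins that hold neighbouring cells together by calcium-dependent binding of their extracellular repeats. Classical cadherins anchor to actin through catenins, and epithelial cells are usually joined by E-cadherin, the product of Cdh1, while neural and many mesenchymal cells use N-cadherin, the product of Cdh2. Protocadherins form the larger branch of the superfamily. Most lie in the alpha, beta and gamma gene clusters, where each gene has its own promoter and where neurons combine isoforms into a cell-surface identity, while the delta protocadherins are single genes with roles in cell sorting and signalling. The members described here are the protein-coding genes of the count table whose names begin with Cdh or Pcdh followed by a number, or by the letter of a cluster. There were 92 such genes out of 54532 in the table and out of 22046 protein-coding ones. They carried 91 distinct names, because 2 identifiers were both called Pcdha11.

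RNA was sequenced from 6 libraries of Glu-tag cells, a mouse enteroendocrine line that the series uses for tumours of the small intestine's endocrine cells. Of these, 3 were labelled sh-IRS2 with the genotype IRS2 Knockdown and are called shIRS2, and 3 were labelled sh-control with the genotype WT and are called shControl. The hairpins are described as stable, no label names their sequence or the number of clones, and the titles number the libraries 1 to 3 within each group. The shIRS2 libraries held 15654814 to 16985361 counts and the shControl libraries 14991019 to 19790073 counts.

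RNA of Irs2, the target of the hairpin, showed no decrease with the hairpin label. It stood at 31.4, 28.6 and 38.7 CPM (counts per 1000000 counts of the library) in shIRS2 and at 31.6, 22.7 and 34.3 CPM in shControl, so the groups overlapped. In edgeR the change was 0.17 on the log2 scale (SE 0.16; 95% interval -0.20 to 0.54; adjusted p 1.00). Because Irs2 goes against the label, every direction given for shIRS2 below is that of the libraries labelled so.

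The markers of the labelled cell type were mostly missing. Of 16 enteroendocrine markers 5 had 0 counts in all 6 libraries, among them Gcg, the proglucagon gene, and Chga, which encodes chromogranin A, and 13 lay under 1 CPM. Their summed level was 26.2 to 33.4 CPM in shIRS2 and 27.6 to 34.7 CPM in shControl, most of it from the transcription factor gene Pax6. Of 14 epithelial markers 12 lay under 1 CPM, Epcam had 1 count in all, and the keratin gene Krt8 held 396 ± 19.7 CPM in shIRS2 and 397 ± 14.4 CPM in shControl (SD, n = 3 each). Of 15 fibroblast and mesenchymal markers 11 had a mean of at least 1 CPM. The list summed to 3725 to 3831 CPM in shIRS2 and 3105 to 3735 CPM in shControl. Vim held the most, at 2033 ± 56.4 CPM in shIRS2 and 1852 ± 31.9 CPM in shControl (SD, n = 3 each). The other 4 lay under 1 CPM, with Thy1 and Postn at 0 counts, Col1a1 at 20 and Dcn at 25 in all. Endothelial, neuronal and glial, muscle and immune lists summed to at most 11.9 CPM in any library.

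Cadherin and protocadherin RNA was scarce in these cells. Of the 92 members 34 had 0 counts in all 6 libraries, 25 had 1 to 9 counts in all and 33 had 10 or more. A mean of at least 1 CPM was reached by 14 members, and a mean of at least 1 FPKM by 3. FPKM, the count scaled to gene length and to library size, is used wherever levels are compared between genes. All members together held 0.00862%, 0.00975% and 0.00974% of the counts in shIRS2 and 0.00787%, 0.00846% and 0.00919% in shControl, so the groups overlapped. The difference of the means was 0.000857 percentage points, with an exact two-sided permutation p of 0.200; comparing 3 with 3 libraries can give no p below 0.1. In bulk RNA, fewer cells expressing a gene and less RNA per cell cannot be told apart.

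For a gene with 0 counts in all, the 95% upper limit of counting error is about 3 counts over the 6 libraries combined, or 0.0295 CPM. Pcdhgc3, Pcdh18 and Pcdh7 alone made up 59.3% of the members' counts. Pcdhgc3, the highest member by FPKM, was still exceeded in mean FPKM by 7107 protein-coding genes, which is 32.2% of them. The median of the protein-coding genes that were tested was 7.75 FPKM.

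**Figure D1:**
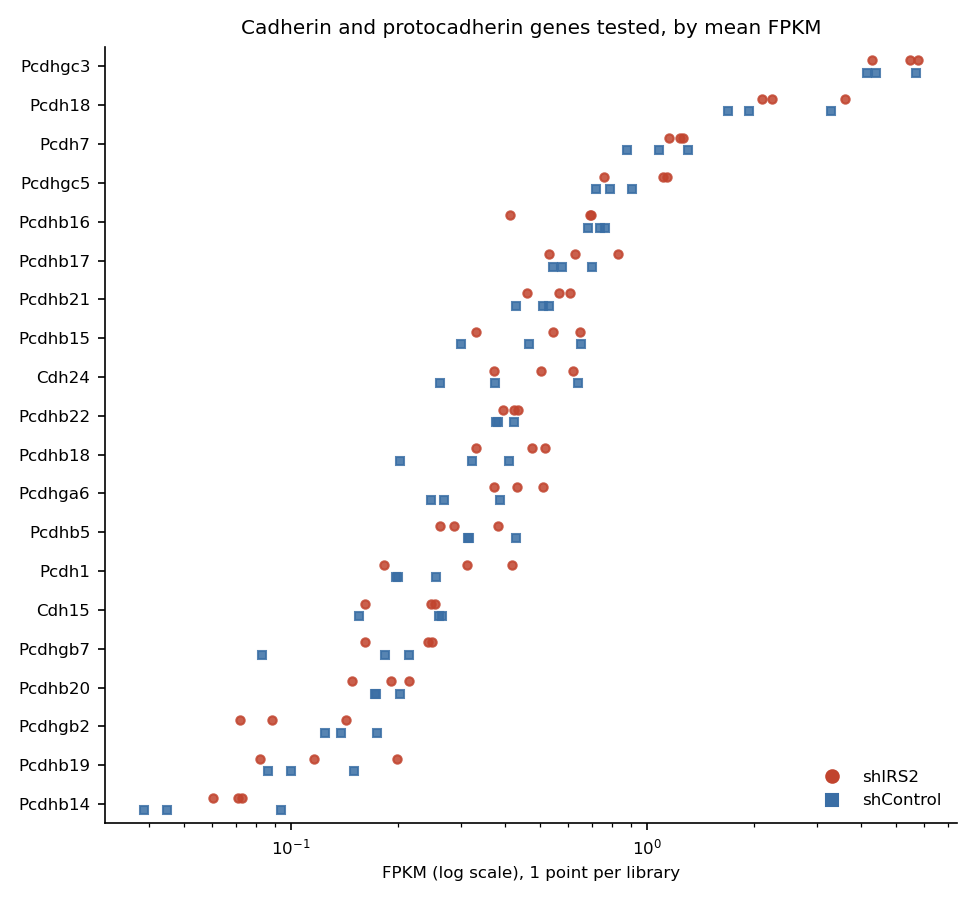
FPKM on a log axis of the 20 tested cadherin and protocadherin genes, ordered by mean, with 1 point per library for shIRS2 (circles) and shControl (squares). Pcdhgc3 lies between 4.16 and 5.78 FPKM and above every library of Pcdh18, which lies between 1.69 and 3.59, and below these the points of neighbouring genes mix.

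Neither of the main classical cadherins was present at more than trace level. Cdh1 (mm10 chr8:106603351-106670246, plus strand) had 4, 1 and 4 counts in shIRS2 and 2, 0 and 3 counts in shControl, a mean of 0.0401 ± 0.0231 FPKM and 0.0217 ± 0.0193 FPKM (SD, n = 3 each). At 14 counts in all it was not tested, and the groups overlapped. Cdh2 had 0 counts in all 6 libraries. The type I genes Cdh3, which encodes P-cadherin, and Cdh4, which encodes R-cadherin, had 16 and 2 counts in all. Cdh15, the M-cadherin gene known from muscle precursors, was the type I gene with most RNA.

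Cdh15 (mm10 chr8:122847966-122867397, plus strand) had 9, 13 and 13 counts in shIRS2 and 13, 17 and 9 counts in shControl. These are 0.221 ± 0.0513 FPKM and 0.227 ± 0.0627 FPKM (SD, n = 3 each). The muscle markers beside it were low, with Myod1 and Myog at 0 counts and a summed list level of 2.56 to 3.30 CPM in shIRS2 and 2.32 to 3.27 CPM in shControl, and their part in the Cdh15 counts was not tested.

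Among the 13 type II genes 9 had 0 counts in every library, and Cdh24 was the one member of the class with a mean of at least 1 CPM. Cdh24 (mm10 chr14:54631231-54641364, minus strand), a type II cadherin that binds catenins, had 30, 21 and 34 counts in shIRS2 and 20, 18 and 40 counts in shControl. Its level was 0.498 ± 0.124 FPKM in shIRS2 and 0.426 ± 0.195 FPKM in shControl (SD, n = 3 each), and the groups overlapped. Cdh11, the OB-cadherin gene of mesenchymal and bone-forming cells, had 2, 8 and 2 counts in shIRS2 and 7, 5 and 10 counts in shControl. It was thus low beside a mesenchymal marker list that was high in sum, although Col1a1 and Dcn on that list also lay under 1 CPM. Cdh5, the VE-cadherin gene of endothelium, had 13 counts in all. The silent type II genes were Cdh6, Cdh7, Cdh8, Cdh9, Cdh10, Cdh12, Cdh18, Cdh19 and Cdh20, several of which are known from the nervous system, and Cdh22 had 2 counts.

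The other cadherins were also near 0. Cdh17, the liver-intestine cadherin of the gut epithelium, had 7 counts in all, Cdh23, a component of hair-cell tip links, had 7 and Cdh26 had 1. Cdh13, which encodes the lipid-anchored T-cadherin, and Cdh16, a kidney cadherin gene, had 0. The classes without protocadherins, type I, type II and other cadherins, held 106, 212 and 15 counts, together a small part of the 9072 counts of all members.

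The proteins that cadherins anchor to were present at high RNA level. Ctnnb1, which encodes beta-catenin, stood at 127 ± 4.49 FPKM in shIRS2 and 121 ± 5.17 FPKM in shControl, and Ctnna1, which encodes alpha-catenin, at 80.2 ± 3.56 FPKM and 78.9 ± 3.16 FPKM (SD, n = 3 each). Ctnnd1, which encodes the p120 catenin that stabilises cadherins at the membrane, was far lower at 3.85 ± 0.0904 FPKM in shIRS2 and 3.72 ± 0.0787 FPKM in shControl. Jup, which encodes plakoglobin, lay at 0.206 ± 0.0710 FPKM in shIRS2 and 0.246 ± 0.0990 FPKM in shControl. Of 25 catenin and junction partner genes 20 had a mean of at least 1 CPM, and Ctnna2, Ctnna3 and Pkp1 had 0 counts.

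The desmosomal cadherin genes and Dsp were almost silent. Of 10 genes on the desmosomal list, which holds the desmogleins, the desmocollins and the plaque gene Dsp, 9 had 0 counts in all libraries, and these were all 6 desmogleins and all 3 desmocollins. Dsp had 30 counts over the 6 libraries. Pkp2 and Pkp3, desmosomal plaque genes placed on the catenin list, were expressed. Pkp2 stood at 8.81 ± 1.02 FPKM in shIRS2 and 7.49 ± 0.789 FPKM in shControl (SD, n = 3 each). Pkp3 stood at 5.52 ± 0.448 FPKM in shIRS2 and 5.15 ± 0.691 FPKM in shControl. Among 17 other genes of the cadherin superfamily, 4 had a mean of at least 1 CPM. Clstn1, a calsyntenin, stood at 81.5 ± 7.40 FPKM in shIRS2 and 76.4 ± 13.3 FPKM in shControl, and Fat1, a giant atypical cadherin, at 6.86 ± 0.797 FPKM and 6.31 ± 0.885 FPKM (SD, n = 3 each), so that both lay above every classical cadherin.

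Most genes for repressors that bind the Cdh1 promoter in other cells were expressed. Of the 9 on the list 8 had a mean of at least 1 CPM, and Snai3 had only 8 counts in all. Twist1 stood at 44.9 ± 4.44 FPKM in shIRS2 and 44.7 ± 7.88 FPKM in shControl, Tcf3 at 34.8 ± 4.15 and 31.7 ± 5.96 FPKM, and Snai2 at 18.9 ± 3.27 and 20.5 ± 4.38 FPKM (SD, n = 3 each). These levels stand beside the Cdh1 counts, and whether the repressors set them was not tested.

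**Figure D2:**
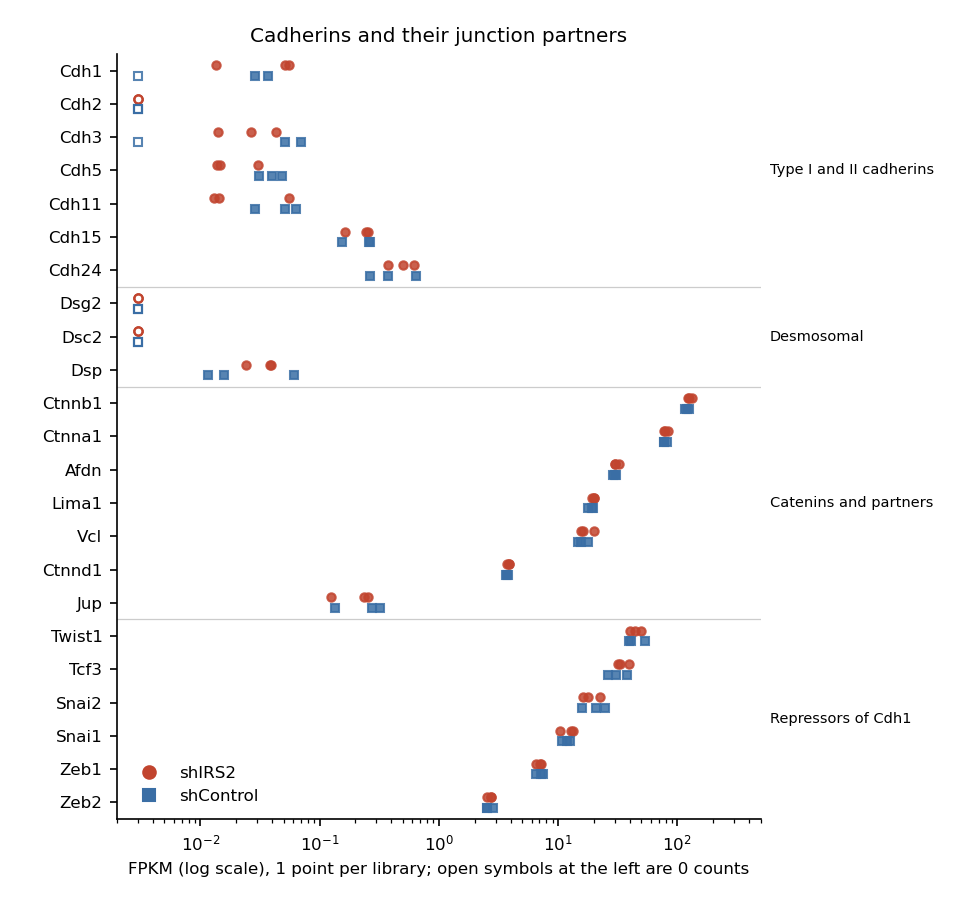
FPKM on a log axis of classical cadherins, desmosomal genes, catenins with their partners, and Cdh1 repressors, with 1 point per library for shIRS2 (circles) and shControl (squares); open symbols at the left are libraries with 0 counts. Ctnnb1 and Ctnna1 lie to the right, near 127 and 80.2 FPKM in shIRS2, while Cdh2, Dsg2 and Dsc2 have 0 counts throughout.

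Among the single protocadherin genes Pcdh18 and Pcdh7 were expressed and most others were not. Pcdh18 (mm10 chr3:49743296-49757325, minus strand), a delta-2 protocadherin, had 194, 312 and 189 counts in shIRS2 and 139, 346 and 186 counts in shControl. These were 11.4, 19.0 and 12.1 CPM in shIRS2 and 9.27, 17.5 and 10.5 CPM in shControl. In both groups the library numbered 2 was the highest, and the groups overlapped. The mean was 2.65 ± 0.820 FPKM in shIRS2 and 2.30 ± 0.856 FPKM in shControl (SD, n = 3 each). The other delta-2 genes were silent or nearly so, with Pcdh8, Pcdh10 and Pcdh17 at 0 counts and Pcdh19, the X-linked member known from human epilepsy, at 27 counts in all.

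Upstream sequences are given here for Pcdh18 and Pcdh10 of the delta-2 class. Both genes lie on chromosome 3, and they stood at 1366 and 0 counts. The 250 bases before each annotated start are given 5′ to 3′ on the gene's strand, from RefSeq on GRCm38.p6, with capitals marking matches to the GC box GGGCGG or to the letters CCAAT on either strand. CAGGTG, the E-box that Snail and Zeb factors bind, and TATAAA were searched in the same way.
Pcdh18, chr3:49757317-49757566, minus strand: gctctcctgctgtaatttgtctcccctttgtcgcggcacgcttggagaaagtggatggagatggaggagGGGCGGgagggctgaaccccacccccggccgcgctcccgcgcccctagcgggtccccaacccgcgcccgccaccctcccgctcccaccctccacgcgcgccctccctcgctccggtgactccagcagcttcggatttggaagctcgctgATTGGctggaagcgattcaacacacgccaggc
Pcdh10, chr3:45378148-45378397, plus strand: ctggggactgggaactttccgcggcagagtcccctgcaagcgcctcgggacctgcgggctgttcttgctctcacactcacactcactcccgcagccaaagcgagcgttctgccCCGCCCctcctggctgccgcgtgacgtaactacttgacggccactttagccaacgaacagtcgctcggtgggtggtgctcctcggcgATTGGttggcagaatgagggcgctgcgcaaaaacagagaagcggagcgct
Both windows hold 1 GC box and 1 CCAAT box and no match to CAGGTG or TATAAA. Whether these letters bear on the RNA of either gene was not tested. The first base of the GC box lay 181 bases and that of the CCAAT box 32 bases before the start in Pcdh18, and 137 and 50 bases before it in Pcdh10. Of 32851 promoter windows of this length 32.7% hold GGGCGG, 33.8% CCAAT, 17.2% CAGGTG and 12.4% TATAAA. The GC content was 68.0% in Pcdh18 and 63.2% in Pcdh10, against a median of 52.4% over all windows.

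Pcdh7 (mm10 chr5:57717967-58133230, plus strand), a delta-1 protocadherin first studied in neural and ectodermal cells, was the third member at or above 1 FPKM. It stood at 13.4, 13.0 and 12.3 CPM in shIRS2 and at 9.54, 11.4 and 13.9 CPM in shControl. The shIRS2 libraries lay close together, inside the range of shControl, at 1.22 ± 0.0579 FPKM against 1.09 ± 0.210 FPKM (SD, n = 3 each). Its exons are overlapped over 21.1% of their bases by genes on the opposite strand, and the opposite-strand gene there, 4932441J04Rik, held 15 counts against 1247 for Pcdh7.

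The window before the RefSeq start of Pcdh7, printed for comparison with the delta-2 pair, has none of the motif matches searched and a GC content of 58.4%. The gene begins earlier in the count table, so 114 of the 250 bases lie inside the gene as given above, against 9 for Pcdh18 and 0 for Pcdh10.
Pcdh7, chr5:57717831-57718080, plus strand: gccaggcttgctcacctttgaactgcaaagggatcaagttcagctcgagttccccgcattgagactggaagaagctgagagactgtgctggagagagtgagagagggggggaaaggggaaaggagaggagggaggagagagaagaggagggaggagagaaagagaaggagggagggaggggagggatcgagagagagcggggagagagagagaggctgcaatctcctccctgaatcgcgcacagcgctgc

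Pcdh1, the delta-1 gene known from airway epithelium, was lower than Pcdh7. It had 2.77, 1.58 and 3.70 CPM in shIRS2 and 1.80, 1.72 and 2.26 CPM in shControl, and the groups overlapped. The remaining single genes had at most 2 counts each, with Pcdh9 and Pcdh15 at 2, Pcdh12 and Pcdh20 at 1, and Pcdh11x at 0.

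The clustered genes on chromosome 18 held most of the family's RNA, but unevenly by cluster. All 14 alpha genes, which neurons express most, had 0 counts in all 6 libraries. The 22 beta genes held 1909 counts and the 21 gamma genes 3952, the gamma share being 43.6% of the members' counts. Summed over the beta cluster the level was 4.05 ± 0.519 FPKM in shIRS2 and 3.92 ± 0.0736 FPKM in shControl, and over the gamma cluster 7.22 ± 1.18 FPKM and 6.46 ± 0.858 FPKM (SD, n = 3 each).

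Pcdhgc3, a C-type gamma gene known for broad expression, was the leading member. It had 403, 487 and 500 counts in shIRS2 and 370, 449 and 561 counts in shControl. These were 23.7, 29.6 and 31.9 CPM in shIRS2 and 24.7, 22.7 and 31.7 CPM in shControl, groups that overlapped almost fully. The mean was 5.18 ± 0.787 FPKM in shIRS2 and 4.75 ± 0.839 FPKM in shControl (SD, n = 3 each).

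The other C-type gamma genes were lower. Pcdhgc5 had 5.83, 8.34 and 8.75 CPM in shIRS2 and 5.60, 5.96 and 7.00 CPM in shControl, which are 1.00 ± 0.212 FPKM and 0.805 ± 0.0973 FPKM (SD, n = 3 each). Pcdhgc4 had 48 counts in all and was not tested. Among the A- and B-type genes Pcdhga6 was highest, at 1.77, 2.01 and 2.43 CPM in shIRS2 and 1.87, 1.26 and 1.19 CPM in shControl. Pcdhga2 and Pcdhga10 had 0 counts.

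Gamma levels carry a limit of counting. Every gamma transcript is spliced to the same constant exons, so in GENCODE M21 the gamma genes share 31.5% to 66.8% of their exon bases with other genes on the same strand, with a median of 44.6%. For Pcdhgc3 the share is 38.5%, and a further part, 28.4% of its exon bases, is overlapped by genes on the opposite strand, whose counts were 35 against 2770 for Pcdhgc3. No source used here says how reads from shared exons were assigned, so the split of counts among gamma genes is uncertain. Pcdhga2 and Pcdhga10 hold shared exons but had 0 counts, so such reads were not credited to every gene. FPKM uses the full gene length, so gamma levels against genes outside the cluster are uncertain too. Per kilobase of unshared exon Pcdhgc3 had 820 counts, Pcdhgc5 152 and Pcdh7 118, which places Pcdhgc5 above Pcdh7, unlike FPKM. Most beta genes have a single exon and none has a constant part. Reads that fit several of these close paralogs are a further uncertainty. On the same strand, only Pcdhb21 and Pcdhb22 overlap each other, over 9.67% and 6.88% of their bases.

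In both clusters most counts belonged to genes of the second part of the cluster, in the gamma cluster through the C-type genes alone. In the direction of transcription, the first 11 beta genes held 186 counts, 9.74% of the cluster, and the last 11 held 1723, 90.3%. Pcdhb14 and the 8 genes after it each had 57 to 355 counts in all, a division chosen after the values were seen, while the 13 genes before them had 0 to 120. The single exception among those 13 was Pcdhb5, with 120 counts. In the gamma cluster the first 10 genes held 277 counts, 7.01%, and the last 11 held 3675, 93.0%. Of these 3675 counts the 3 C-type genes held 3517, and the other 8 genes held 158, fewer than the first 10. Pcdhb1, first of the beta genes, and Pcdhb13 had 0 counts.

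The 10 tested beta genes ranged in mean level over all libraries down to 0.0637 FPKM for Pcdhb14. Pcdhb16 had the highest mean over all libraries, 0.664 FPKM, although Pcdhb17 was above it in shIRS2. Pcdhb16 stood at 3.65, 3.59 and 2.17 CPM in shIRS2 and 3.94, 3.54 and 4.01 CPM in shControl. The levels of Pcdhb16, Pcdhb17, Pcdhb21 and Pcdhb15 were 0.602 ± 0.163, 0.662 ± 0.152, 0.545 ± 0.0771 and 0.507 ± 0.161 FPKM in shIRS2, and 0.726 ± 0.0404, 0.608 ± 0.0813, 0.490 ± 0.0535 and 0.473 ± 0.177 FPKM in shControl (SD, n = 3 each). Over the 6 libraries the range of each of these 4 genes overlapped that of its neighbour in this order.

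**Figure D3:**
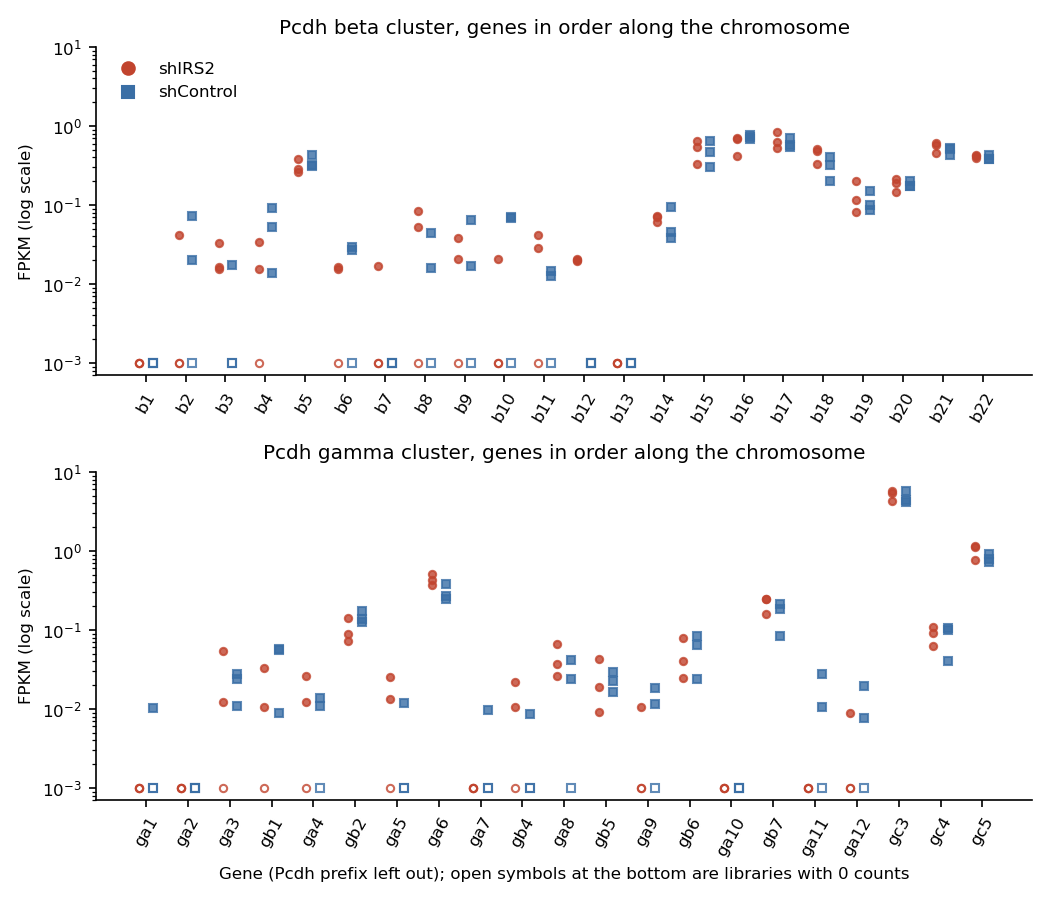
FPKM on a log axis for the 22 beta genes (top) and the 21 gamma genes (bottom) in order along chromosome 18, with 1 point per library for shIRS2 (circles) and shControl (squares); open symbols at the bottom are libraries with 0 counts. The last 11 genes of each panel hold 90.3% and 93.0% of the counts of their cluster, and Pcdhgc3 is the highest gene.

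Factors known to set the choice of clustered protocadherin promoters were all expressed. All 15 listed genes, among them the cohesin subunits, the loop-anchoring factor Ctcf and the DNA methyltransferases, had a mean of at least 1 CPM. Ctcf stood at 30.2 ± 1.62 FPKM in shIRS2 and 29.0 ± 1.70 FPKM in shControl, Rad21, the cohesin clamp, at 96.9 ± 2.77 and 95.6 ± 2.24 FPKM, and the maintenance methyltransferase Dnmt1 at 77.5 ± 2.13 and 77.4 ± 3.77 FPKM (SD, n = 3 each). Dnmt3b, a de novo methyltransferase, was low at 1.27 ± 0.265 FPKM in shIRS2 and 1.71 ± 0.458 FPKM in shControl.

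No cadherin or protocadherin gene passed the test between shIRS2 and shControl. Of the 92 members 20 had enough counts to be tested, 16 of them on chromosome 18, and the other 72 were not tested. The edgeR quasi-likelihood test called 0 of these 20 at an adjusted p of 0.05, where the background over all 13472 genes tested was 0%. None of the 20 was at an unadjusted p under 0.05, against 262 of all genes, and DESeq2 called 0 of them. No member had groups that did not overlap, in either direction, against 2.75% of all tested genes in which shIRS2 was higher throughout and 3.77% in which it was lower, together 6.52%.

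The fitted changes were small. The fit put 16 of the 20 tested members above 0 and 4 below, at a median log2 change of 0.15, beside a median of -0.00 and 49.9% positive over all genes tested. The 95% interval excluded a 2-fold change in either direction for 12 of the 20. Over all 20, the interval reached 0.70 to either side of the estimate at the median (log2 scale). Pcdhgc3 was at 0.12 (SE 0.16), with a 95% interval of -0.23 to 0.48. Pcdh7 was at 0.16 (SE 0.16), with an interval of -0.21 to 0.53. Pcdh18 was at 0.19 (SE 0.28), and its interval, -0.44 to 0.83, was wider than those of Pcdhgc3 and Pcdh7.

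The smallest hairpin p among the members was that of Pcdhga6, 0.0837 before adjustment, with a log2 fold change of 0.55 (SE 0.28). The next were Pcdhb18 at 0.51 (SE 0.32), Pcdhgc5 at 0.31 (SE 0.20) and Pcdh1 at 0.48 (SE 0.32). Pcdhb18 stood at 2.41, 1.64 and 2.62 CPM in shIRS2 and at 1.67, 1.01 and 2.09 CPM in shControl, and within each number the shIRS2 library was the higher one. Pcdhgb2 had the largest fitted decrease, -0.51 (SE 0.40), at 0.353, 0.426 and 0.703 CPM in shIRS2 and 0.867, 0.606 and 0.678 CPM in shControl. Pcdhb16 followed at -0.27 (SE 0.24), Pcdhgb7 stood at 0.41 (SE 0.40) and Cdh24 at 0.23 (SE 0.37). None of these passed the test, and every edgeR adjusted p was 1.00.

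With the replicate number as a block the result for the members did not change. The blocked edgeR fit called 1 gene of all tested, 0.00742%, and 0 members, whose blocked adjusted p ran from 0.558 to 0.993. Pcdh18 then had a log2 fold change of 0.21 (SE 0.11), with the shIRS2 library higher within each number, by 0.30, 0.12 and 0.20 in the pairs numbered 1, 2 and 3, and a blocked adjusted p of 0.601. Pcdhgc3 had 0.13 (SE 0.10), with pair values of -0.06, 0.39 and 0.01.

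**Figure D4:**
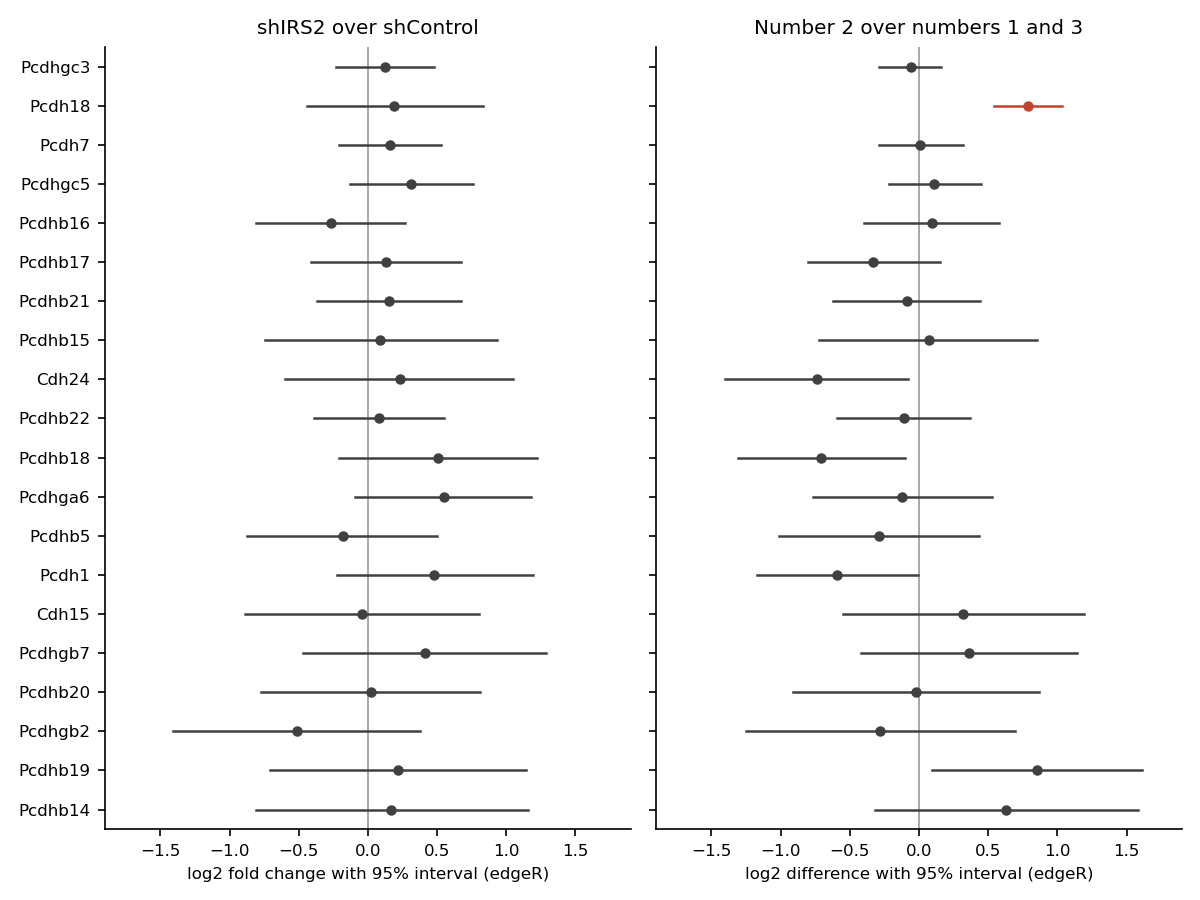
Fitted edgeR log2 changes with 95% intervals for the 20 tested members, ordered by mean FPKM, for shIRS2 over shControl (left) and for replicate number 2 over numbers 1 and 3 (right). All left intervals cross 0, and on the right Pcdh18 (red), at 0.79, is the one member past the adjusted threshold.

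The replicate numbers of the titles separated Pcdh18 clearly. In the libraries numbered 2 it stood at 19.0 CPM in shIRS2 and 17.5 CPM in shControl, against 11.4 and 12.1 CPM in shIRS2 and 9.27 and 10.5 CPM in shControl in those numbered 1 and 3. Both libraries numbered 2 lay above the other 4. The log2 difference between number 2 and the mean of numbers 1 and 3 was 0.79 (SE 0.12), a 1.73-fold higher level, with an edgeR adjusted p of 0.000278. It passed under all 10 alternatives tried, with log2 differences from 0.57 to 0.86 and adjusted p from 1.89e-08 to 0.0151. Number 2 was singled out with earlier results of these data known, and no label says what a number stands for.

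Pcdh18 was the only member called, and calls between numbers were common in these data. The F test over both differences between numbers called 1 of the 20 tested members, where 19.6% of all 13472 genes were called, and the edgeR adjusted p of Pcdh18 was 0.000979. For number 2 against 1 and 3, 11.6% of all genes were called higher and 11.9% lower, beside 1 and 0 of the 20 members. Libraries numbered 2 lay outside the other 4 in 6 members, 2 higher and 4 lower, against a background of 16.7% higher and 23.4% lower, together 40.1%. The median difference of the 20 was -0.04, and that of all genes -0.00. Most members have few counts, so a difference of the same relative size as that of Pcdh18 would be harder to detect in them.

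The members that stood apart by number without being called were mostly low. Cdh24 had 1.28 and 0.910 CPM in the shIRS2 and shControl libraries numbered 2, below 1.77 and 2.17 CPM in shIRS2 and 1.33 and 2.26 CPM in shControl, a log2 difference of -0.74 (SE 0.31) with an edgeR adjusted p of 0.0963. Pcdhb18 lay at -0.71 (SE 0.28), Pcdh1 at -0.59 (SE 0.27) and Pcdhb17 at -0.33 (SE 0.22), also below the other libraries. Pcdhb19 was higher in both libraries numbered 2, at 0.85 (SE 0.36), with an edgeR adjusted p of 0.0997. Pcdhgc3 missed the F test at an edgeR adjusted p of 0.0668. Its lower libraries were those numbered 1 in shIRS2 and those numbered 1 and 2 in shControl, and number 2 against 1 and 3 gave -0.06 (SE 0.11). Pcdh7 did not follow the number, at 0.01 (SE 0.14).

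Some mesenchymal markers also differed by number. Of the 11 tested fibroblast and mesenchymal genes 6 passed the F test and 5 did not, where 19.6% of all genes passed, with Fbn1, a fibrillin, at 0.59 (SE 0.07) and Pdgfra, a growth factor receptor of fibroblasts, at -0.67 (SE 0.08) for number 2 against 1 and 3, so the list had no common direction. Irs2 was lower in number 2, at -0.38 (SE 0.10). The part of these genes in the Pcdh18 difference was not tested.

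**Figure D5:**
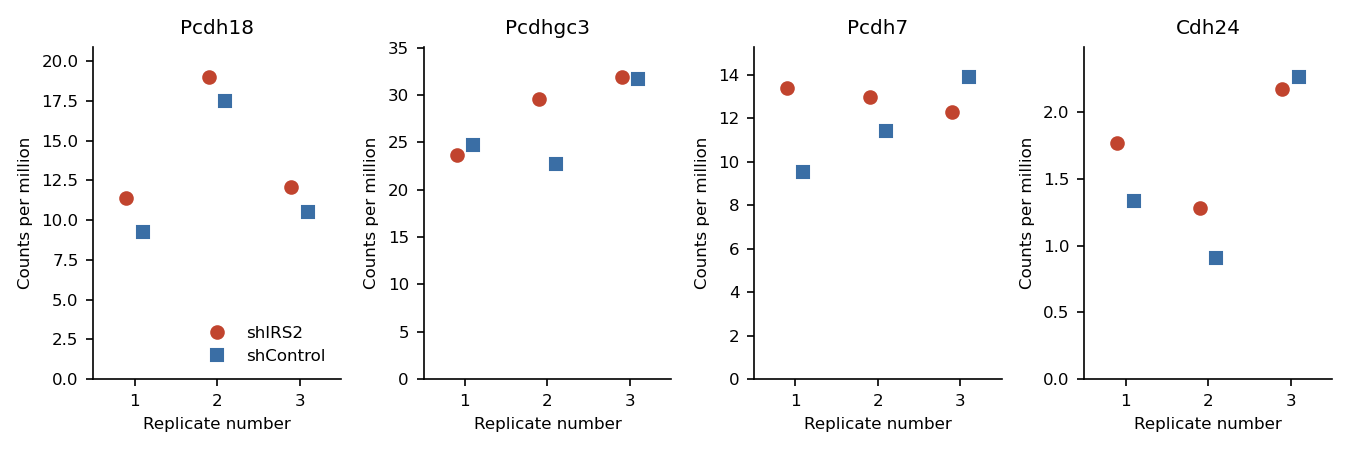
CPM by replicate number for Pcdh18, Pcdhgc3, Pcdh7 and Cdh24, with circles for shIRS2 and squares for shControl, 1 point per library, on axes that start at 0. Pcdh18 reaches 19.0 and 17.5 CPM in the libraries numbered 2 and at most 12.1 CPM elsewhere, while Cdh24 is lowest in number 2 and Pcdh7 follows no number.

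Genes that work with cadherins were not called between the hairpin groups either, with 0 in each of the 5 lists that had tested genes, by edgeR with or without the block. Of 20 tested catenins and junction partners 13 were positive and 7 negative, with a median of 0.05. Of 11 tested proteases that shed cadherins 10 were positive, with a median of 0.07. Mmp14 was at 0.26 (SE 0.10) and Mmp3, stromelysin, at 0.49 (SE 0.19), the smallest p-values of that list at 0.0261 and 0.0273 before adjustment. Regulators of the clustered genes had 8 positive and 7 negative, and Cdh1 repressors 6 and 2.

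Between replicate numbers the F test called some genes of each of these lists, beside the 19.6% of all genes. Among catenins and partners it called 5 of 20, of which 4 were higher in number 2, such as Vcl, which encodes vinculin, at 0.29 (SE 0.06), and Ctnnal1, an alpha-catenin relative, at 0.53 (SE 0.11). Of the proteases 4 of 11 were called, of which 2 also passed for number 2 against 1 and 3, both lower, among them the gamma-secretase subunit gene Aph1a at -0.24 (SE 0.07). Of the Cdh1 repressors 3 of 8 were called, of which Snai2, at -0.42 (SE 0.11), and Tcf3, at -0.28 (SE 0.07), were also called lower in number 2, while Twist1, at -0.14 (SE 0.08), did not pass that contrast. Of the promoter-choice regulators 4 of 15 were called. Among these Dnmt3b was higher in number 2, at 0.57 (SE 0.14), and Dnmt3a lower, at -0.28 (SE 0.07). Fat1, at 0.25 (SE 0.07), was higher in number 2, and the other called superfamily genes, Clstn1 and Celsr3, were lower, at -0.26 (SE 0.06) and -0.57 (SE 0.15).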

How the data were processed

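The authors deposited whole-number counts per gene and, for the same libraries, FPKM values, which equal the count over gene length and a library total. Columns named NC and S with a number were read as shControl and shIRS2 by name. Per the submitters' processing notes the build was mm10; per the labels' protocols libraries were strand-specific paired reads of 150 bases. No source used here names the aligner or counter, its strand setting or its handling of shared exons.

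Counts were tested in R 4.3.3 with edgeR 4.0.16 (TMM, filterByExpr by group, robust quasi-likelihood, Benjamini-Hochberg over all genes, threshold 0.05, two-sided). The hairpin fit had the group as its only term; the number fit had both. DESeq2 1.42.0, limma 3.58.1 on log2(FPKM + 1) or with 0.1, other scaling, no filter, single libraries left out and the replicate block were alternatives. The fit was also run on simulated data. Those for the hairpin comparison held no differences between numbers, so they cannot show the power of the hairpin fit on the real libraries. The main hairpin fit treated the libraries as unpaired, and only the blocked fit and the number fit used the number. Deviations from group means correlated at 0.167, 0.576 and 0.26 within numbers 1, 2 and 3. However, shIRS2 number 1 correlated at 0.199 with shControl number 3, and shIRS2 number 3 at 0.189 with shControl number 1. Both values exceeded the 0.167 within number 1. Libraries are called biological triplicates, but no label names separate cultures, and the spread that p-values rest on may be partly technical. Members and lists were chosen with earlier results of these data known. Named were the targeted gene, Cdh1, Cdh2, members by level (at least 1 CPM, or the 10 highest in FPKM) and by the 8 smallest p-values of each test, and up to 5 genes per list; a few others were chosen after their values were seen. Limits at 0 counts cover counting error only.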

Additional observations from a re-analysis of the deposited data

Results flagged for a closer look

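A gene of the gamma cluster outside the members also had reads. Pcdhgb8, annotated as a polymorphic pseudogene and therefore not among the protein-coding members, held 10 counts over the 6 libraries. The counts were 1, 0 and 4 in shIRS2 and 0, 4 and 1 in shControl. Like the other gamma genes it shares the constant exons, and the source of these reads was not tested.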

How the results depend on the processing

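No member was called between shIRS2 and shControl under any of the 13 alternatives. The count of all genes called there was 0, against 2 with DESeq2, 6 with no filter on low counts and 1 with the replicate block, and 0 in every leave-one-out fit. Between replicate numbers 2638 genes were called, against 1641 with DESeq2, 803 with limma on log2(FPKM + 1) and 798 to 3774 with single libraries left out, the lowest being 798 without the shControl library numbered 2 and 973 without the shIRS2 library numbered 2. The F test called 1 member, and 2 with no filter; with single libraries left out it called 1 to 2. The added member was Pcdhgc3, at an edgeR adjusted p of 0.0149 with no filter, 0.0256 without the shControl library numbered 1 and 0.0278 without the shIRS2 library numbered 3. Pcdh18 kept its call in the F test, at an adjusted p of 9.83e-08 to 0.0373. Members expressed numbered 14 at 1 CPM, 4 at 5 CPM and 3 at 1 FPKM. Over the 4 alternatives tried for this count it ran from 3 to 20.

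Uncalled hairpin changes turned sign in some fits. Without both libraries numbered 2, an alternative chosen after seeing the data, Pcdhgc3 stood at -0.01, Cdh15 at 0.01 and Pcdhb20 at -0.05. With single libraries left out the log2 fold change ran from -0.09 to 0.54 for Pcdh18, -0.07 to 0.27 for Pcdhb17, -0.15 to 0.42 for Pcdhb15, -0.04 to 0.65 for Cdh24, -0.26 to 0.14 for Cdh15, -0.10 to 0.15 for Pcdhb20, -0.20 to 0.50 for Pcdhb19 and -0.07 to 0.70 for Pcdhb14. For number 2 against 1 and 3 it ran from -0.27 to 0.14 for Pcdhgc3, -0.11 to 0.16 for Pcdh7, -0.03 to 0.25 for Pcdhgc5, -0.14 to 0.35 for Pcdhb16, -0.36 to 0.17 for Pcdhb21, -0.83 to 0.80 for Pcdhb15, -0.35 to 0.10 for Pcdhga6, -0.18 to 0.16 for Pcdhb20 and -0.55 to 0.05 for Pcdhgb2. The cause was not tested. The block changed no call of a member. Low counts limit most members: 72 of 92 could not be tested.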
